A study of Homo sapiens with 8 samples.

Results

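The oxygen sensing machinery was described through 10 genes, which were VHL, the HIFα genes HIF1A, EPAS1 and HIF3A, the HIFβ genes ARNT and ARNT2, and the hydroxylase genes EGLN1, EGLN2, EGLN3 and HIF1AN. A gene was measured where a transcript cluster of the array (the probes summarized for 1 transcript) carried its symbol and no other. This held for 9 of the 10 genes, each with 1 cluster, out of 18417 genes in all. The cluster of EGLN2, a prolyl hydroxylase, also carried the symbol of the readthrough transcript RAB4B-EGLN2, so no value is given for EGLN2. For these 9 genes the rule on symbols used no measured value. Where a gene of the array had several such clusters, the cluster with the highest mean signal was taken. The 10 genes themselves were chosen with earlier results of these data known.

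The cells were 786-O, an established renal cell carcinoma (RCC) line that lacks functional VHL. VHL+ cells were stable transfectants that carried a VHL expression vector. The titles of the VHL- samples name 786-O and no added gene, and do not say whether these cells carried an empty vector. VHL+ and VHL- cells were kept for 24 h under hypoxia or normoxia, and total RNA was hybridized to Affymetrix gene arrays. There were 2 biological replicates, as the labels call them, in each of the 4 groups VHL+ hypoxia, VHL+ normoxia, VHL- hypoxia and VHL- normoxia. Nothing in the sources used here says that the replicates were separate cultures, so p values measure the spread between these 8 arrays. Effects of VHL cannot be told apart from effects of transfection and selection, and less RNA per cell cannot be told apart from fewer cells that express a gene.

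As background, VHL is the substrate receptor of a ubiquitin ligase. When oxygen is present, the prolyl hydroxylases EGLN1, EGLN2 and EGLN3 (also called PHD enzymes) modify the HIFα subunits, VHL binds the modified subunits and the ligase marks them for degradation, while HIF1AN (FIH) modifies an asparagine of HIFα and so blocks coactivator binding. Under hypoxia, or without VHL, HIFα accumulates, pairs with ARNT or ARNT2 and binds DNA at a short core motif, ACGTG or GCGTG. EGLN1 and EGLN3 are themselves known HIF targets. In clear cell RCC, loss of VHL is the typical event, and 786-O cells are known to make HIF2α, the product of EPAS1, but no functional HIF1α protein. Arrays measure mRNA, whereas the control of HIFα described here acts on the protein.

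The core motifs were searched on both strands of the 250 bases before the transcription starts in the RefSeq promoter table of build GRCh38.p14, in which 8 of the 10 genes had 12 starts; VHL and ARNT2 were not among them. ACGTG and GCGTG share their last letters and differ in the first, so that a match is 1 or the other. Of all 35116 promoter windows of this length, 18.5% held ACGTG, 32.2% held GCGTG and 43.2% held either. Windows of 2 HIFα genes, HIF1A and EPAS1, and of 2 hydroxylase genes, EGLN1 and EGLN3, are shown. They run 5′ to 3′ on the strand of the gene, with the core motif in capitals.
HIF1A, chr14:61695263-61695512, plus strand: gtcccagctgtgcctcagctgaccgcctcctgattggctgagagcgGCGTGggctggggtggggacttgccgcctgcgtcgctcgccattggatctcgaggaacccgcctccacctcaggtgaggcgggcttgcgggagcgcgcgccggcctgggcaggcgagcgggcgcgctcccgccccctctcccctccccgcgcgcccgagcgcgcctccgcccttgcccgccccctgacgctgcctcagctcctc
EPAS1, chr2:46297157-46297406, plus strand: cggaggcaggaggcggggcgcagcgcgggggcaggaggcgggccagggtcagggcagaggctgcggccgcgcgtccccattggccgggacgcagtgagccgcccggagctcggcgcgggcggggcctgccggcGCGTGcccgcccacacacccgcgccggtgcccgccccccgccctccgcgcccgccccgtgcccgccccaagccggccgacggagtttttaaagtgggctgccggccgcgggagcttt
EGLN1, chr1:231422288-231422537, minus strand: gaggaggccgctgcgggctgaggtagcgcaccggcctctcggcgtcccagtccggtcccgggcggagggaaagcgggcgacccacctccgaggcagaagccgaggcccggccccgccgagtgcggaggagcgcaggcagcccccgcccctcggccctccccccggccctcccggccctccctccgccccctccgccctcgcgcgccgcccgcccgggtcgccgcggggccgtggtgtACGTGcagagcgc
EGLN3, chr14:33951075-33951324, minus strand: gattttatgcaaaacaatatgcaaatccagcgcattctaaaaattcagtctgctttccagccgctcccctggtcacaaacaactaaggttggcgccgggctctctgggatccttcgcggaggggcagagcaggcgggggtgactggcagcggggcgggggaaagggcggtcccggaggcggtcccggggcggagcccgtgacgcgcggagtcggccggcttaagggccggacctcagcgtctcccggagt
The window shown for HIF1A held 1 copy of GCGTG, 204 bases before the start, and that of EPAS1 held 1 copy, 117 bases before the start. The window of EGLN1 held 1 copy of ACGTG that began 13 bases before the start, and the window of EGLN3 held neither motif. Of the windows not shown, 1 of HIF3A held 3 copies of GCGTG and 1 of EGLN2 held ACGTG on both strands, at 49 and 48 bases before the start, where the strands share 1 palindrome. Those of ARNT and HIF1AN and the other window of HIF1A held none. A match of letters is not a binding site, and a window without a match says nothing of binding elsewhere in the gene.

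The values were log2 signals after Robust Multichip Average (RMA) and ran from 4.81 to 14.02 over 33297 clusters. Replicates correlated at 0.991 to 0.994 across clusters, and the medians of the arrays lay between 6.60 and 6.91. VHL+ cells under hypoxia had the highest of these medians and VHL- cells under hypoxia the lowest, both in replicate 1. As a check of the cell type, all 7 markers of renal carcinoma cells lay above the median of their own array on all arrays, 5 of 6 markers of other cell types (ALB, CDH5, LYZ, PECAM1 and PTPRC) lay below it on all arrays, and COL1A1 lay above it on all arrays. The share of all clusters above the median on all arrays was not counted. None of these 6 passed the test in any comparison. Of the 7 renal markers, 1 was lower in VHL+ cells under normoxia and 1 was higher under hypoxia. Over both oxygen conditions PAX2 was higher (0.56) and LHX1 (-0.74) and CDH2 (-0.58) were lower on the log2 scale. Of all clusters, 2.69% were called lower under normoxia and 10.3% higher under hypoxia. Over both conditions 10.6% were called higher and 3.72% lower. Differences were tested with limma, with p values adjusted by Benjamini and Hochberg over all clusters and a threshold of 0.05. Log2 signals of different genes come from different probes and were not set against each other.

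VHL, the transfected gene, was higher in VHL+ cells. Its log2 signals were 9.08 and 9.16 in VHL+ cells under hypoxia, 8.85 and 8.86 in VHL+ cells under normoxia, 8.23 and 8.51 in VHL- cells under hypoxia, and 8.24 and 8.43 in VHL- cells under normoxia. All 4 arrays of VHL+ cells lay above all 4 arrays of VHL- cells, with a gap of 0.34 between the ranges. How many of all clusters separate the cell types in this way was not counted, here or for the genes below. The log2 fold change over both oxygen conditions was 0.63 (SE 0.11, limma adjusted p = 0.000109), a 1.55-fold higher signal. Whether the probes of the cluster cover the transcript of the vector is not given in the sources used here.

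**Figure D1:**
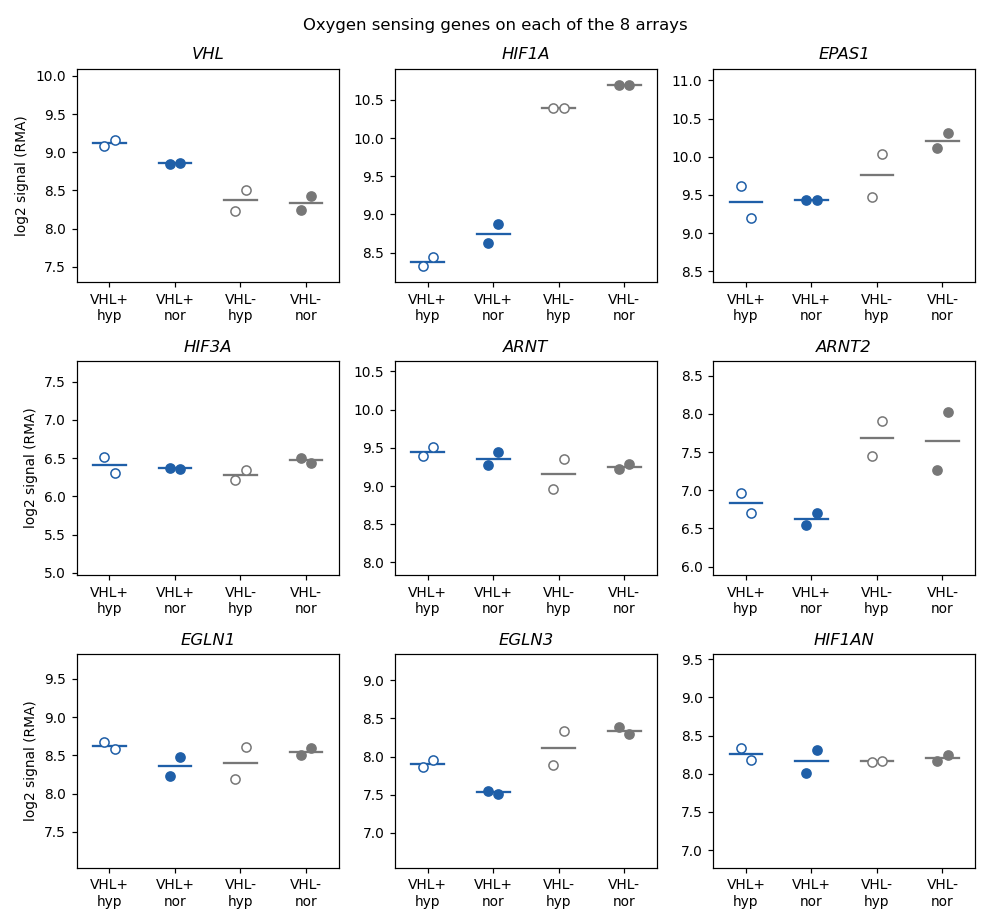
Log2 RMA signal (y axis) of the 9 measured genes on each of the 8 arrays, grouped on the x axis as VHL+ cells under hypoxia (hyp) and normoxia (nor) and VHL- cells under hypoxia and normoxia. Points are arrays, open under hypoxia and filled under normoxia, and lines are group means of 2 arrays; HIF1A lay between 8.32 and 8.88 in VHL+ cells, against 10.39 to 10.7 in VHL- cells.

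HIF1A, which encodes HIF1α, showed the widest separation of the 9 genes. Its log2 signals were 8.32 and 8.44 in VHL+ cells under hypoxia, 8.62 and 8.88 in VHL+ cells under normoxia, 10.39 and 10.4 in VHL- cells under hypoxia, and 10.7 and 10.69 in VHL- cells under normoxia. The 4 groups did not overlap at all, and 1.51 on the log2 scale separated the highest array of VHL+ cells from the lowest array of VHL- cells.

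EPAS1, which encodes HIF2α, had log2 signals of 9.62 and 9.2 in VHL+ cells under hypoxia and 9.44 on both arrays of VHL+ cells under normoxia. In VHL- cells it had 9.48 and 10.04 under hypoxia and 10.11 and 10.31 under normoxia. VHL- cells under normoxia lay above every other array, whereas replicate 1 of VHL- cells under hypoxia lay within the range of VHL+ cells. HIF3A, a HIFα gene some of whose products antagonize the other HIFα proteins, had signals between 6.31 and 6.52 in VHL+ cells and between 6.22 and 6.5 in VHL- cells, and lay below the median of its own array on all 8 arrays.

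The HIFβ genes differed from each other in how they moved with VHL. ARNT, the main partner of HIFα, had signals between 9.28 and 9.51 in VHL+ cells and between 8.96 and 9.35 in VHL- cells, and these ranges overlapped. ARNT2, a close relative of ARNT known mainly from neural and kidney development, had log2 signals of 6.97 and 6.7 in VHL+ cells under hypoxia, 6.55 and 6.7 in VHL+ cells under normoxia, 7.45 and 7.91 in VHL- cells under hypoxia, and 7.27 and 8.03 in VHL- cells under normoxia. All arrays of VHL+ cells were lower than all arrays of VHL- cells, and 3 of the 4 arrays of VHL+ cells were below the median of their own array. The replicates of VHL- cells under normoxia lay far apart, with an SD of 0.54 around a mean of 7.65.

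Among the hydroxylase genes, EGLN3 (PHD3) had log2 signals of 7.86 and 7.95 in VHL+ cells under hypoxia, 7.55 and 7.51 in VHL+ cells under normoxia, 7.89 and 8.34 in VHL- cells under hypoxia, and 8.38 and 8.3 in VHL- cells under normoxia. VHL+ cells under normoxia had the lowest values, with no overlap with any other group. EGLN1 (PHD2), the main hydroxylase of HIFα in most cells, ranged from 8.23 to 8.67 in VHL+ cells and from 8.19 to 8.61 in VHL- cells. HIF1AN ranged from 8.01 to 8.33 in VHL+ cells and from 8.15 to 8.24 in VHL- cells. For EGLN1 and HIF1AN the ranges of the cell types thus overlapped almost wholly.

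In VHL- cells under hypoxia all 9 genes were lower on replicate 1 than on replicate 2, HIF1A only slightly (10.39 against 10.4). The share of all clusters lower on replicate 1 was not counted. The median difference of the 9 genes was -0.39, while the medians of these arrays differed by -0.1. In the other groups, 4 of 9 genes were lower on replicate 1 in VHL+ cells under hypoxia, 6 of 9 in VHL+ cells under normoxia and 6 of 9 in VHL- cells under normoxia. The part of these replicate differences in the results below is given by leaving out each array.

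The order of the group means, from the highest to the lowest, was VHL+ hypoxia, VHL+ normoxia, VHL- hypoxia, VHL- normoxia for VHL and the exact reverse for HIF1A and EPAS1. For VHL, the means of 9.12 and 8.86 in VHL+ cells under hypoxia and normoxia did not pass by limma (adjusted p = 0.865), although their replicates did not overlap. The means of 8.37 and 8.34 in VHL- cells did not pass by limma either (adjusted p = 0.92). For EPAS1, the means were 9.41 ± 0.3 in VHL+ hypoxia, 9.44 in VHL+ normoxia, 9.76 ± 0.4 in VHL- hypoxia and 10.21 ± 0.14 in VHL- normoxia (SD, n = 2 each), and neither the step within VHL+ cells nor that within VHL- cells passed. The step in the middle of that order, VHL+ normoxia vs. VHL- hypoxia, was not tested for any gene. EGLN3 had its highest mean in VHL- normoxia and ARNT2 in VHL- hypoxia, and both had their lowest in VHL+ normoxia.

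Under normoxia, the comparison of VHL+ with VHL- cells asks how restored VHL changes mRNA when oxygen is present. VHL was higher and HIF1A, EPAS1, ARNT2 and EGLN3 were lower in VHL+ cells, so that 1 of 9 genes was higher and 4 of 9 lower. Of all clusters, 2.07% were called higher and 2.69% lower. The difference of HIF1A was -1.95 on the log2 scale (SE 0.14, 95% interval -2.23 to -1.66, limma adjusted p = 4.82e-08), which is a 3.85-fold lower signal and the 24th smallest p of 33297 clusters. The fold changes of the other genes called lower were -1.03 for ARNT2 (SE 0.2, adjusted p = 0.00474), -0.81 for EGLN3 (SE 0.15, adjusted p = 0.0029) and -0.77 for EPAS1 (SE 0.18, adjusted p = 0.0146). The signal of ARNT2 in VHL+ cells was close to the median of the array on most of these arrays, and the deposited values hold no measure of background.

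VHL itself differed by 0.52 under normoxia (SE 0.14, 95% interval 0.22 to 0.82, adjusted p = 0.0398), close to the threshold. The genes that did not pass were HIF3A at -0.1, ARNT at 0.11, EGLN1 at -0.19 and HIF1AN at -0.04. For EGLN1 the 95% interval was -0.51 to 0.14 and for HIF1AN -0.34 to 0.25, so that a decrease of EGLN1 of the size found for EGLN3 lay outside its interval.

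HIF1A kept its call under normoxia in all 17 alternative settings, including each array left out. After quantile normalization, EPAS1 had an adjusted p of 0.052 and ARNT2 of 0.0631. Without replicate 1 or replicate 2 of VHL+ cells under hypoxia, arrays that enter this comparison only through the shared estimate of spread, HIF1A was the only 1 of the 5 genes that stayed called, with adjusted p values up to 0.121 for VHL, 0.111 for EPAS1, 0.126 for ARNT2 and 0.0573 for EGLN3. ARNT2 also lost its call without replicate 2 of VHL- cells under normoxia (adjusted p = 0.0553), with a log2 fold change of -0.65. VHL lost its call when any array of VHL+ or VHL- cells under normoxia was left out, with adjusted p values from 0.0822 to 0.436.

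**Figure D2:**
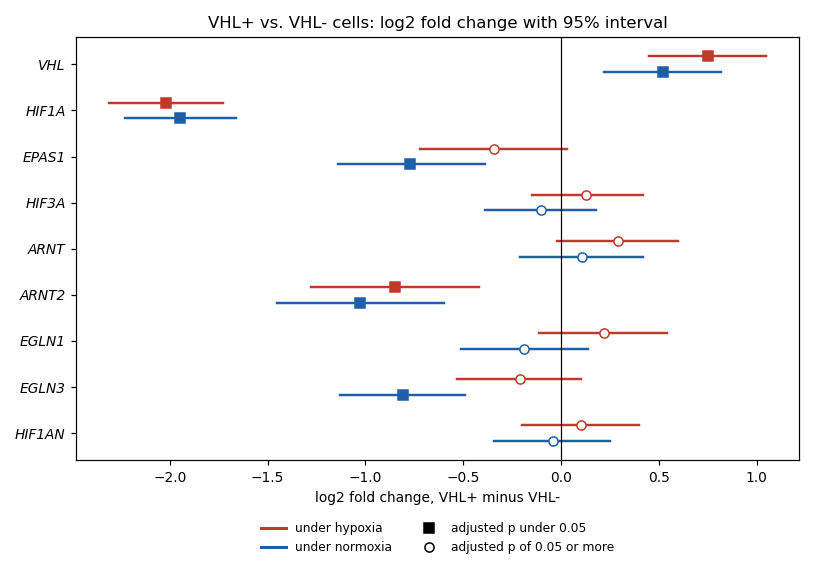
Log2 fold change of VHL+ minus VHL- cells (x axis) for the 9 measured genes (y axis) under hypoxia and under normoxia, with 95% intervals as lines. Filled squares passed an adjusted p under 0.05 and open circles did not; HIF1A lay at -2.02 under hypoxia and -1.95 under normoxia, and EGLN3 at -0.21 and -0.81.

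Under hypoxia, 3 of the 9 genes were called between VHL+ and VHL- cells, with VHL higher and HIF1A and ARNT2 lower. Here 10.3% of all clusters were called higher and 1.31% lower, and the median of all clusters was shifted by 0.16 towards VHL+ cells. After quantile normalization, which removes this shift, 920 clusters were called higher and 911 lower, against 3437 and 436 as deposited. HIF1A differed by -2.02 on the log2 scale (SE 0.14, 95% interval -2.31 to -1.73, adjusted p = 4.56e-08), a 4.05-fold lower signal with the 14th smallest p. Relative to the median of all clusters, the changes were 0.59 for VHL, -2.17 for HIF1A and -1.01 for ARNT2, and of the genes that did not pass, -0.5 for EPAS1 and -0.37 for EGLN3. After quantile normalization EPAS1 lay at -0.62 (adjusted p = 0.106) and EGLN3 at -0.47 (adjusted p = 0.0757), over 1.5 times their deposited differences.

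Under hypoxia the log2 difference of VHL was 0.75 (SE 0.14, adjusted p = 0.00211) and that of ARNT2 was -0.85 (SE 0.2, adjusted p = 0.0105). EPAS1 did not pass at -0.34 (95% interval -0.72 to 0.03, adjusted p = 0.252), nor did EGLN3 at -0.21 (-0.53 to 0.1, adjusted p = 0.415). The others that did not pass were ARNT at 0.29, EGLN1 at 0.22, HIF3A at 0.13 and HIF1AN at 0.1. VHL and ARNT2 lost their calls without replicate 1 or replicate 2 of VHL+ cells under hypoxia, with adjusted p values up to 0.0787 for VHL and 0.208 for ARNT2. ARNT2 also lost its call after quantile normalization (adjusted p = 0.0558). EPAS1 depended on single arrays, as it passed at -0.63 (adjusted p = 0.0229) without replicate 1 of VHL- cells under hypoxia, the array on which all 9 genes were lower, but lay at -0.06 (adjusted p = 0.817) without replicate 2 of VHL- cells and at -0.13 (adjusted p = 0.645) without replicate 2 of VHL+ cells under hypoxia.

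Over both oxygen conditions, with 4 arrays against 4, the same 5 genes were called as under normoxia, again with VHL higher and HIF1A, EPAS1, ARNT2 and EGLN3 lower. Of all clusters, 10.6% were called higher and 3.72% lower, and the split was 2798 higher and 2530 lower after quantile normalization, against 3531 and 1239 as deposited. The log2 fold changes were -1.98 for HIF1A (SE 0.1, adjusted p = 1.64e-13), -0.94 for ARNT2 (SE 0.14, adjusted p = 1.61e-05), -0.56 for EPAS1 (SE 0.13, adjusted p = 0.00322) and -0.51 for EGLN3 (SE 0.12, adjusted p = 0.00456). ARNT, EGLN1, HIF1AN and HIF3A lay between 0.01 and 0.2 and did not pass. Of these calls, that of EGLN3 alone was lost in any of the 15 alternatives run, without replicate 1 of VHL+ cells under hypoxia (adjusted p = 0.0744).

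The comparison of hypoxia with normoxia asks how low oxygen changes the mRNA of its own sensors. None of the 9 genes passed the test in VHL+ cells, in VHL- cells or over both. Few clusters of any kind did, with 0.153% called either way in VHL+ cells, 0.0661% in VHL- cells and 0.171% over both cell types. At an unadjusted p under 0.05 there were 2 genes in VHL+ cells (HIF1A and EGLN3), 2 in VHL- cells (HIF1A and EPAS1) and 1 over both (HIF1A), beside 2052, 1765 and 1649 of 33297 clusters. These counts came from limma. A one-way test of the compared groups alone gave 0 genes in VHL+ cells and 1 in VHL- cells (HIF1A), beside 121 and 253 clusters. Its threshold was the unadjusted 0.005 that the methods name.

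HIF1A had lower signals under hypoxia than under normoxia on both arrays of each cell type. The log2 fold change was -0.37 in VHL+ cells (95% interval -0.66 to -0.08, adjusted p = 0.616), -0.3 in VHL- cells (-0.59 to -0.01, adjusted p = 0.806) and -0.34 over both (-0.55 to -0.12, adjusted p = 0.307). Relative to the median of all clusters, which was 0.09 in VHL+ cells and -0.12 in VHL- cells, these changes were -0.46 and -0.18.

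EPAS1 had a log2 fold change with hypoxia of -0.03 in VHL+ cells (95% interval -0.4 to 0.35) and -0.45 in VHL- cells (-0.82 to -0.08, adjusted p = 0.779). The change in VHL- cells passed at -0.73 (adjusted p = 0.0284) without replicate 2 of VHL- cells under hypoxia, which leaves replicate 1 alone in its group, and lay at -0.17 (adjusted p = 1) without replicate 1. With hypoxia, EGLN3 changed by 0.37 in VHL+ cells (0.06 to 0.69, adjusted p = 0.699) and by -0.22 in VHL- cells (-0.54 to 0.09, adjusted p = 0.806). EGLN1 changed by 0.27 in VHL+ cells (-0.06 to 0.59) and by -0.14 in VHL- cells (-0.46 to 0.19). Relative to the median of all clusters, the changes in VHL+ cells were 0.28 for EGLN3 and 0.18 for EGLN1. In VHL- cells they were -0.11 for EGLN3 and -0.02 for EGLN1.

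**Figure D3:**
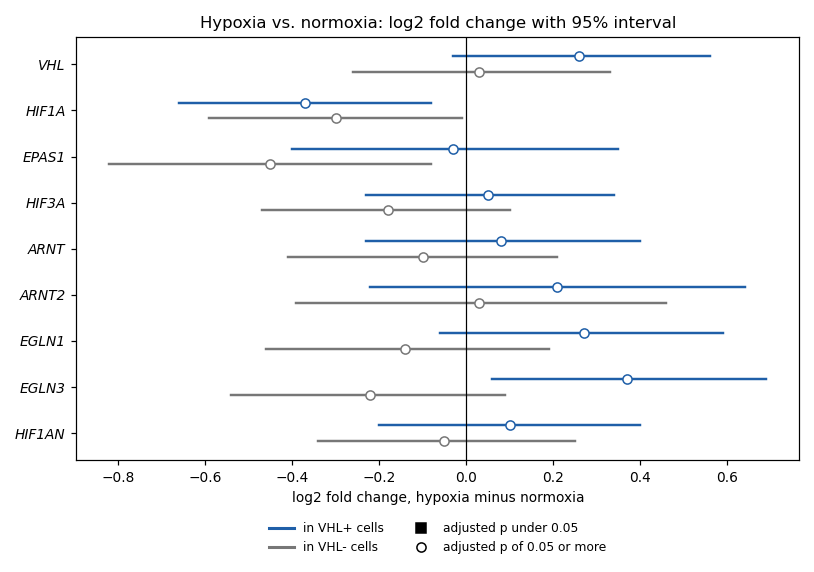
Log2 fold change of hypoxia minus normoxia (x axis) for the 9 measured genes (y axis) in VHL+ and in VHL- cells, with 95% intervals as lines and open circles for an adjusted p of 0.05 or more. No gene passed; EGLN3 lay at 0.37 in VHL+ cells and -0.22 in VHL- cells, and HIF1A at -0.37 and -0.3.

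Whether the effect of VHL depended on oxygen was tested directly by its effect under hypoxia minus its effect under normoxia. None of the 9 genes passed, and 0.00601% of all clusters did. The difference for EGLN3 was 0.6 (95% interval 0.15 to 1.04, unadjusted p = 0.0119 by limma, adjusted p = 0.651), and it was the only 1 of the 9 genes with an unadjusted p under 0.05, beside 1869 clusters. The median of all clusters was 0.21, so that the difference of EGLN3 relative to it was 0.39, and it was 0.34 after quantile normalization. For EPAS1 the difference was 0.42 (95% interval -0.1 to 0.95) and for EGLN1 0.41 (-0.05 to 0.87). For HIF1A it was -0.07 (-0.48 to 0.34). The lack of a call for EPAS1 and EGLN3 under hypoxia was therefore not shown to differ from their calls under normoxia.

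The other genes of the pathway were described by 5 lists. The first list held subunits of the ligase that VHL serves and general cofactors of cullin ligases. In this list, VHL+ cells had higher signals of 3 of 6 measured genes under hypoxia, of none under normoxia and of 2 over both oxygen conditions. None was lower. The shares of all clusters called higher were 10.3%, 2.07% and 10.6%. The median log2 fold change of the list was 0.39 under hypoxia, against 0.16 over all clusters, and 0.14 under normoxia, against -0.04. Those called under hypoxia were DCUN1D1, which promotes neddylation of cullins, at 0.69 (SE 0.15, adjusted p = 0.00487), CAND1, which exchanges the substrate receptors of cullin ligases, at 0.59 (adjusted p = 0.016), and RBX1, the RING subunit, at 0.45 (adjusted p = 0.0364). DCUN1D1 had log2 signals of 9.83 and 9.85 in VHL+ cells, against 9.05 and 9.25 in VHL- cells under hypoxia. RBX1 had an adjusted p of 0.237 and CAND1 of 0.14 after quantile normalization, and all 3 lost their calls without replicate 1 or replicate 2 of VHL+ cells under hypoxia, with adjusted p values up to 0.128 for DCUN1D1, 0.277 for CAND1 and 0.275 for RBX1. CAND1 and RBX1 also lost theirs without replicate 1 of VHL- cells under hypoxia, and RBX1 without either array of VHL- cells under normoxia. NEDD8 and UBE2M were not measured by a cluster of their own. Of the measured subunits themselves, RBX1 was called under hypoxia alone, and the scaffold CUL2 and the adaptors ELOB and ELOC did not pass in any comparison.

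A list of 7 genes held VHL partners, deubiquitinases and the cullin ligase genes CUL5 and RNF7. Of the 7, 3 were higher in VHL+ cells over both oxygen conditions, 1 under hypoxia and none under normoxia, and none was lower. Over all clusters 10.6%, 10.3% and 2.07% were higher, so that 1 of 7 under hypoxia is near the share of all clusters. The median of the list over both conditions was 0.27, against 0.06 for all clusters. VBP1, a prefoldin subunit that binds VHL, had log2 signals of 8.84 and 8.71 in VHL+ cells under hypoxia, 8.41 and 8.86 in VHL+ cells under normoxia, 7.99 and 8.13 in VHL- cells under hypoxia, and 8.08 and 8.15 in VHL- cells under normoxia. All arrays of VHL+ cells lay above all arrays of VHL- cells, by 0.62 over both conditions (SE 0.11, adjusted p = 0.000259). This call was kept in all 15 alternatives run for it. Its call under hypoxia was lost without replicate 1 or replicate 2 of VHL+ cells under hypoxia, with adjusted p values up to 0.18. CUL5, a cullin, was at 0.47 (adjusted p = 0.00853, and 0.0966 after quantile normalization) and USP33, a deubiquitinase that VHL targets, at 0.37 (adjusted p = 0.0186). CUL5 lost its call without replicate 1 of VHL+ cells under hypoxia or replicate 2 of VHL+ cells under normoxia, and USP33 without either of these, replicate 1 of VHL- cells under hypoxia or replicate 2 of VHL- cells under normoxia.

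Among the coactivators of HIF and their competitors, SMARCA4, an ATPase of the SWI/SNF remodelling complex, was the only 1 of 8 measured genes called, higher in VHL+ cells at 0.59 under hypoxia (SE 0.14, adjusted p = 0.00859) and at 0.39 over both conditions (adjusted p = 0.0152). With 10.3% and 10.6% of all clusters called higher in these comparisons, 1 of 8 is near the share of all clusters. The call under hypoxia was lost without replicate 1 or replicate 2 of VHL+ cells or replicate 1 of VHL- cells under hypoxia (adjusted p up to 0.106). The call over both conditions was lost without any single array of the hypoxic groups or without replicate 2 of VHL+ cells under normoxia. None of the 13 measured regulators of HIFα and EGLN stability passed in any comparison. The smallest p values among them were those of LIMD1, a scaffold that brings VHL and the hydroxylases together, at -0.47 (adjusted p = 0.0786), and of SART1, which binds HIF1α, at -0.62 (adjusted p = 0.11), both for VHL+ vs. VHL- cells under normoxia.

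The relatives of ARNT with a bHLH-PAS fold held the largest called changes of the 5 lists. Of 10 measured, 2 were higher and 1 lower in VHL+ cells under normoxia, 3 were higher under hypoxia, and 3 were higher and 1 lower over both conditions. Of all clusters, 2.07% were higher and 2.69% lower under normoxia, 10.3% were higher under hypoxia, and 10.6% were higher and 3.72% lower over both conditions. CLOCK and NPAS2, which pair with BMAL1 in the circadian clock, were higher by 0.9 (SE 0.12, adjusted p = 7.1e-06) and 0.81 (SE 0.11, adjusted p = 7.14e-06) over both conditions. Both calls held in all 15 alternatives run for them. Under normoxia alone, both lost their calls without replicate 1 or replicate 2 of VHL+ cells under hypoxia and without 1 or more arrays of the normoxic groups, with adjusted p values up to 0.15 for CLOCK and 0.227 for NPAS2. After quantile normalization, NPAS2 had adjusted p values of 0.0813 under hypoxia alone and 0.0747 under normoxia alone. Under hypoxia alone, CLOCK lost its call without replicate 1 or replicate 2 of VHL+ cells under hypoxia (adjusted p up to 0.107), and NPAS2 without replicate 1 (adjusted p = 0.0835). The third gene called under hypoxia was ARNTL2 (BMAL2), at 0.59 with an adjusted p of 0.0417, which is named after its value was seen. NPAS2 had log2 signals of 8.3 and 8.17 in VHL+ cells under hypoxia, 8.23 and 8.01 in VHL+ cells under normoxia, 7.38 and 7.21 in VHL- cells under hypoxia, and 7.61 and 7.27 in VHL- cells under normoxia. CLOCK ranged from 9.18 to 9.76 in VHL+ cells, against 8.38 to 8.84 in VHL- cells. Neither gene overlapped between the cell types, a separation that was not counted over all clusters. SIM1, a transcription factor of hypothalamic and kidney development, was higher by 0.54 (adjusted p = 0.00762, and 0.131 after quantile normalization) and lost its call without replicate 1 of VHL+ cells under hypoxia.

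AHR, the aryl hydrocarbon receptor, which also pairs with ARNT, was called for VHL under normoxia and over both oxygen conditions. For hypoxia it was called in VHL+ cells alone. Its log2 signals were 9.98 and 10.1 in VHL+ cells under hypoxia, 8.61 and 9.2 in VHL+ cells under normoxia, 9.93 and 10.44 in VHL- cells under hypoxia, and 10.17 and 10.38 in VHL- cells under normoxia. VHL+ cells under normoxia lay below every other array, and the range of VHL- cells under hypoxia covered those of VHL+ cells under hypoxia and VHL- cells under normoxia. Under normoxia AHR was lower in VHL+ cells, with a log2 difference from VHL- cells of -1.37 (SE 0.19, limma adjusted p = 0.000165). That call was lost in the fit of the compared groups alone and by the one-way test. Under hypoxia AHR did not pass at -0.14 (limma adjusted p = 0.641). Over both oxygen conditions AHR lay at -0.76 (SE 0.18, limma adjusted p = 0.00316). This call was lost without replicate 1 of VHL+ cells under hypoxia. In VHL+ cells it was higher under hypoxia than under normoxia by 1.13 (SE 0.19, adjusted p = 0.0138), and its adjusted p was 0.346 after quantile normalization, 0.999 without replicate 1 and 0.472 without replicate 2 of VHL+ cells under hypoxia. With hypoxia AHR changed by -0.09 in VHL- cells (limma adjusted p = 0.847) and by 0.52 over both cell types (limma adjusted p = 0.454). The difference between the VHL effects was 1.23 (SE 0.27, unadjusted p = 0.000213 by limma) and did not pass with an adjusted p of 0.327.

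**Figure D4:**
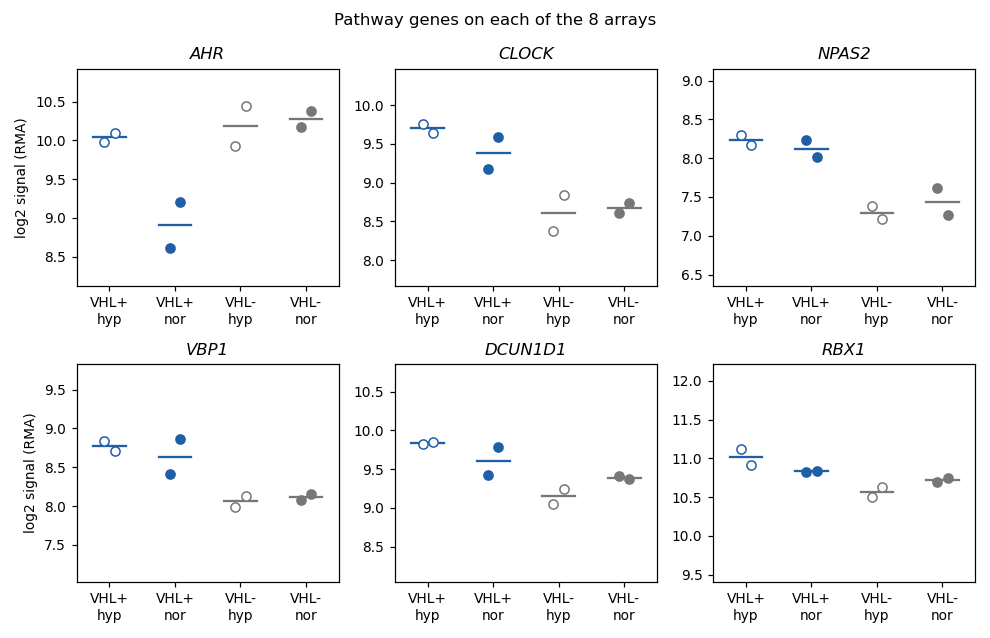
Log2 RMA signal (y axis) of 6 pathway genes on each of the 8 arrays, grouped on the x axis as VHL+ cells under hypoxia (hyp) and normoxia (nor) and VHL- cells under hypoxia and normoxia, with points for arrays and lines for group means. AHR lay at 8.61 and 9.2 in VHL+ cells under normoxia and at 9.93 or above on the 6 other arrays, and NPAS2 lay at 8.01 or above in VHL+ cells, against 7.61 or below in VHL- cells.

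For the 5 genes called in at least 1 comparison, the 3 genes of most similar pattern over the 8 arrays were taken by the root mean square (RMS) difference between signals centred on their own mean. This is a description with no test, over arrays that share their 4 groups. Since the genes were chosen on these arrays, their changes resemble those of the gene they were chosen for by construction. The pattern of HIF1A was closest to those of MIR21 (RMS difference 0.15), TNFSF10 (0.19) and C1QTNF1 (0.22), against a median of 1.05 over all genes. MIR21 is the gene of the microRNA miR-21, TNFSF10 encodes the death ligand TRAIL, and both, like C1QTNF1, had log2 fold changes between -2.13 and -2.01 in VHL+ vs. VHL- cells over both oxygen conditions. For VHL, the closest were MRPL34 (0.04), a mitochondrial ribosomal protein, APOBEC3C (0.06) and TSPO (0.06), against a median of 0.32.

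EPAS1 was closest to HPGD (0.11), which degrades prostaglandins, SNORD4A (0.11) and RTN4RL2 (0.12), against a median of 0.38. ARNT2 was closest to the complement protease gene C1R, the sodium channel gene SCN9A and RCAN3, each at 0.11 and against a median of 0.56. EGLN3 was closest to NHERF2 (0.07), QPCTL (0.09) and PSMB3 (0.11), against a median of 0.34. The VHL effect under hypoxia minus that under normoxia lay between 0.44 and 0.5 for these 3 genes, against a median of 0.21 over all clusters. As the 3 genes were chosen for their likeness to EGLN3 on the same arrays, this says nothing further of EGLN3.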

How the data were processed

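Total RNA of VHL+ and VHL- 786-O cells, kept under hypoxia or normoxia, had been hybridized to Affymetrix arrays, 2 replicates in each of 4 groups. The authors normalized the arrays by RMA in Partek (version not given in the sources used here) and deposited log2 signals per transcript cluster. The deposited log2 values were taken as they were, with no missing value and without a measure of background. Gene symbols came from the annotation of the array: 19460 clusters carried 1 symbol, 1754 several and 12083 none. A gene was its cluster with 1 symbol and the highest mean.

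All 33297 clusters were tested by limma (version 3.58.1, R 4.3.3), in a fit of the 4 groups and, for effects over both levels of the other factor, in an additive fit. P values were adjusted by Benjamini and Hochberg over all clusters. The fits were tested on simulated data. Alternatives were each array left out in turn, a one-way test of the compared groups alone, at the methods' unadjusted threshold of 0.005 (the methods name a one-way layout, without saying which groups entered each fit), quantile normalization, median centring, a robust fit with a trend, a fit of the compared groups only, the replicate number as a block, no clusters below their array's median throughout, only clusters with a single symbol, and the average over the clusters of a gene. They were planned for the 9 measured genes, and their use for pathway genes was chosen after seeing the data. Over both oxygen conditions, the one-way test and the fit of the compared groups only were not run.

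The 10 genes, the pathway lists and the markers were chosen with earlier results of these data known. Of each pathway list, called genes were named, at most 4 by the smallest adjusted p, or, in a list without calls, the 2 genes of smallest p. The number of arrays limits the precision.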

Additional observations from a re-analysis of the deposited data

How the results depend on the processing

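In VHL+ vs. VHL- cells, the calls of HIF1A under normoxia, under hypoxia and over both were kept under all alternatives run for them. So were those of VHL, EPAS1 and ARNT2 over both oxygen conditions. There were 17 alternatives under normoxia and under hypoxia. Over both there were 15, without the fit of the compared groups alone and the one-way test. The one-way test named here was run on the compared groups alone. For VHL+ vs. VHL- cells under normoxia, 5 of 9 genes were called, against 3 after quantile normalization (VHL, HIF1A and EGLN3), 2 after median centring, 2 with the compared groups alone and 2 by the one-way test; with each array left out there were 1 to 5, and 1 without replicate 1 or replicate 2 of VHL+ cells under hypoxia. Under hypoxia, 3 were called, against 2 after quantile normalization (VHL and HIF1A), 1 after median centring, 1 by the one-way test, and 1 to 4 with each array left out. For hypoxia vs. normoxia in VHL- cells, 0 were called by limma, 1 by the one-way test (HIF1A), and 0 to 1 with each array left out. Over both oxygen conditions, 4 to 5 genes were called with each array left out. The other comparisons gave 0 genes in every setting. Of all 33297 clusters, 1587 were called under normoxia, against 1805 after quantile normalization, 1245 after median centring, 250 with the compared groups alone and 288 by the one-way test. Under hypoxia the numbers were 3873, 1831, 1423, 4005 and 400 in the same order. For hypoxia vs. normoxia, the one-way test called 253 clusters in VHL- cells and 121 in VHL+ cells. With the replicate block, the counts of genes called were those of the fit without it (5, 3 and 5 for VHL under normoxia, under hypoxia and over both, and 0 for the rest). The correlations of replicate differences between groups ran from 0.0503 to 0.605, with the highest between the VHL- groups and 4 of 6 above 0.1, and the labels do not say that a number marks a shared culture or day, so that the numbers were not taken to pair the samples. Over all clusters the block called 2518 under normoxia, 4990 under hypoxia, 220 for hypoxia in VHL- cells, 336 in VHL+ cells and 98 for the interaction, against 1587, 3873, 22, 51 and 2. Over both cell types hypoxia gave 328 clusters with the block, against 57. Without replicate 1 of VHL+ cells under hypoxia, the clusters called for VHL fell to 473 under normoxia and 256 under hypoxia. Of 599 values recomputed for single genes, 483 kept their direction and their side of the threshold, 113 lost the threshold, 3 gained it and 0 reversed; the causes were not tested.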
